A study of Homo sapiens with 12 samples.

Results

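The REV-ERB heme receptors NR1D1 and NR1D2 and the clock genes around them were followed by RNA-seq in A375, a human melanoma cell line. The 10 genes were chosen by symbol as the receptors, the activator ARNTL (BMAL1), the repressors PER1, PER2, PER3, CRY1, CRY2 and BHLHE40, and the output factor DBP. They are 10 of the 20263 genes in the deposited table, and all 10 were among the 14287 genes that passed the filter on low counts. Wild-type cells fell into 4 groups of 3 libraries, labelled Ctrl, DBIC, Hemin and DBIC+Hemin. DBIC is the compound that the study's text writes DdBIC, dodecyl 1H-benzo[d]imidazole-5-carboxylate, an agonist of the orphan nuclear receptor Nur77. Hemin is the heme compound that the study added to its cultures. DBIC+Hemin had both agents. The dose, the duration and the time of collection of these libraries, and the vehicle and serum of the Ctrl cells, are not given in the sources used here. The study's culture methods say that serum, which is itself a source of heme, was lowered while cells were treated with DBIC, so a difference in serum between Ctrl and the groups with DBIC cannot be told apart from the compound if Ctrl kept full serum. Nothing in the labels says that the 3 libraries of a group came from separate cultures, so p-values measure only the spread between these libraries, which may be technical. Each group was collected without a time series, so the phase and amplitude of a rhythm were not measured.

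NR1D1 (REV-ERBα) and NR1D2 (REV-ERBβ) are nuclear receptors whose ligand is heme. With heme bound they recruit a corepressor complex with the deacetylase HDAC3 to response elements (ROREs), among them those of ARNTL, where the ROR receptors activate. ARNTL pairs with CLOCK or NPAS2 on E-boxes and drives NR1D1, NR1D2, the PER and CRY genes, BHLHE40 and DBP, and the PER and CRY proteins and BHLHE40 in turn repress it. PER1 and BHLHE40 are also known as immediate responders to signals outside this loop, PER1 through CREB.

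The letters of these elements were searched in the 250 bases before each start listed by RefSeq on GRCh38.p14, on both strands. All 10 genes matched, with 14 starts. The E-box CACGTG was present for 3 of the 10 genes and before 6.34% of all 35116 starts. A variant, the E′ box CACGTT, was present for 4 genes and before 4.55% of all starts. The windows that hold them are shown because they are the element through which ARNTL acts, with the motif (or its reverse complement) in capitals, 5′ to 3′ along the strand of the gene.
NR1D1, E′ box, upstream of the GENCODE 29 gene, chr17:40100740-40100769, minus strand: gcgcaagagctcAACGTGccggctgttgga
NR1D2, first E-box, intron (also within NKIRAS1), chr3:23945954-23945983, plus strand: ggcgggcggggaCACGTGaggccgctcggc
NR1D2, second E-box, intron (also within NKIRAS1), chr3:23946004-23946033, plus strand: gggccgcagggaCACGTGggggcgggggcg
PER1, E-box, intron (also within AC129492.3), chr17:8152560-8152589, minus strand: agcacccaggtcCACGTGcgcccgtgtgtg
PER2, E′ box, intron, chr2:238288790-238288819, minus strand: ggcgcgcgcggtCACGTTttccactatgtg
CRY1, E′ box, exon (also within AC078929.1), chr12:107093621-107093650, minus strand: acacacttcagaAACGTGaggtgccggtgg
CRY2, E′ box, intron, chr11:45847275-45847304, plus strand: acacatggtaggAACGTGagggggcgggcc
BHLHE40, E-box, exon (also within BHLHE40-AS1), chr3:4979187-4979216, plus strand: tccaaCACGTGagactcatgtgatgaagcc

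NR1D2 was the gene with 2 E-boxes in 1 window, and neither form was in the windows of ARNTL, PER3 and DBP. The D-box (TTATGTAA or TTACGTAA), bound by DBP and NFIL3, was found for NR1D2 and PER3, against 0.94% of all starts. The RORE core (TAGGTCA or TGGGTCA) was found for NR1D2 and CRY2, against 4.82%. The cAMP response element TGACGTCA was found for 0 of the genes, against 1.65%, and the half-site TGACG that it contains for NR1D2, PER2, CRY1 and CRY2, against 21.2%. Genes with several starts had more windows to match. A match is a description of the letters and not a site of binding, and a missing match says nothing of elements outside the window.

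The 12 libraries had total counts of 37951275 to 44358912, and 3 counts, the limit that a count of 0 allows, stood at no more than 0.0784 CPM (counts scaled to 1 common library size). All 10 genes were far above it. The melanocyte-lineage factor SOX10 had group means of 453 to 600 TPM (a level per transcript length, as deposited) and MITF of 7.61 to 10.9 TPM, but the pigment genes were absent or nearly so: PMEL, MLANA and DCT were under 1 TPM, and TYR was at 0 in all DBIC and Hemin libraries. The 8 melanoma markers summed to 563 to 587 TPM in Ctrl, 636 to 670 in DBIC, 499 to 508 in Hemin and 498 to 563 in DBIC+Hemin, nearly all of it SOX10, while S100B had means of 22.1, 17.2, 27.1 and 19.3 TPM in these groups. The leukocyte markers PTPRC and MS4A1 were at 0 in all libraries, and the 5 summed to 33.5 to 34 TPM in Ctrl and 26.1 to 33.4 in DBIC, nearly all of it CD68. The summed level of the 5 fibroblast markers was 9.55 to 10.5 TPM in Ctrl and 6.99 to 7.09 in DBIC, most of it LUM, and COL3A1 went the other way. The 3 endothelial markers summed to 0.337 to 0.503 TPM in Ctrl and 0.82 to 1.01 in DBIC, with VWF at 0.16 and 0.17. The keratinocyte marker KRT1 was at 0 throughout, and the 4 keratinocyte markers summed to 61.5 to 66.3 TPM in Ctrl and 69.7 to 83.8 in DBIC, mostly KRT10. Their part in the results below was not tested. In bulk RNA, fewer cells of a type and less RNA per cell cannot be told apart.

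The hemin labels were checked on the heme-degrading enzyme HMOX1 and on ALAS1, the first enzyme of heme synthesis, which heme is known to lower. HMOX1 stood at 7.99 to 9.19 CPM in Ctrl, 7.26 to 8.73 in DBIC, 61.9 to 65.5 in Hemin and 146 to 188 in DBIC+Hemin. ALAS1 stood at 123 to 127 CPM in Ctrl, 148 to 152 in DBIC, 52.6 to 53.9 in Hemin and 71.5 to 77.8 in DBIC+Hemin. No hemin library overlapped a library without hemin in either gene.

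With DBIC alone, 7 of the 10 genes rose and none fell. They were both receptors, ARNTL, PER1, PER2, CRY1 and BHLHE40, and the other 3 (PER3, CRY2 and DBP) did not pass the test. At an unadjusted p under 0.05 edgeR also had 7 higher and 0 lower, as did DESeq2 with its adjusted p. BHLHE40 rose 3.99-fold, NR1D1 2.67-fold and PER1 2.03-fold. Of all genes tested, 20% were called higher and 17.2% lower in this comparison, at an adjusted p under 0.05 by edgeR's quasi-likelihood test with Benjamini-Hochberg adjustment. The median log2 fold change was 0.58 over the 10 genes and -0.01 over all genes tested. Under upper-quartile scaling the share of calls that were higher went from 53.8% to 40% of all calls, while the same 7 genes were called higher in all 19 alternative settings.

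The same 7 genes were lower with DBIC+Hemin than with DBIC alone and none was higher, where 18.4% of all genes tested were called lower and 13.5% higher. The counts were again 7 and 0 at an unadjusted p under 0.05 in edgeR and in DESeq2. The median was -0.42 over the 10 genes and -0.01 over all genes. The DBIC libraries enter both comparisons, so a DBIC level that is high for any reason raises the first difference and lowers the second. Of the 7, ARNTL had libraries that overlapped between the groups, and its call was lost in 13 of 19 settings (upper-quartile scaling, no filter on low counts, the fit of only these groups, the replicate block, and without Ctrl replicate 1 or 3, DBIC replicate 1 or 2, DBIC+Hemin replicate 2 or 3 or any Hemin replicate). The split of all calls turned under upper-quartile scaling, from 42.4% higher to 59.2% higher, while the other 6 genes were called lower in all settings.

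**Figure D1:**
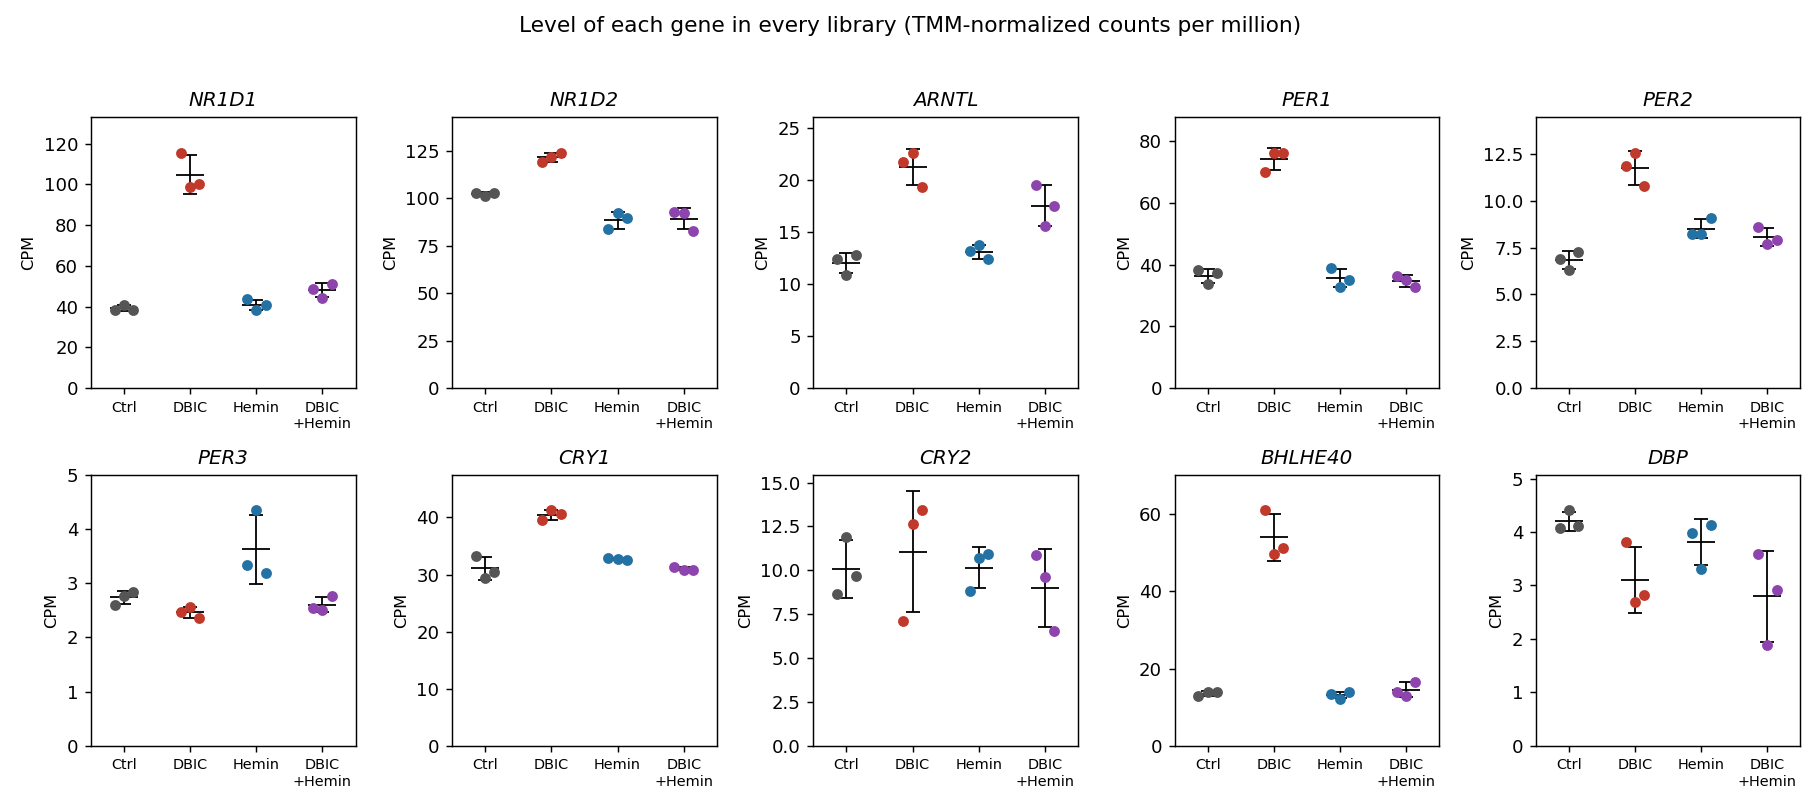
Level of each of the 10 genes in CPM (counts scaled to 1 common library size with TMM factors) in every library, 1 panel a gene, with axes that start at 0. Points are libraries, and bars are the mean and SD of the 3 libraries of a group. BHLHE40, NR1D1 and PER1 stand apart in the DBIC libraries and lie near Ctrl with DBIC+Hemin, whereas CRY2 and DBP overlap in most groups.

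Among the receptors, NR1D1 (ENSG00000126368, chr17:40092787-40100725, minus strand) stood at 38.4, 41.1 and 38.5 CPM in the Ctrl libraries, at 116, 98.6 and 100.1 CPM in DBIC, at 43.6, 38.6 and 40.7 CPM in Hemin and at 48.6, 44.3 and 51.1 CPM in DBIC+Hemin. All DBIC libraries lay above all others, and the DBIC+Hemin libraries lay above every Ctrl and every Hemin library. DBIC raised NR1D1 by 1.41 on the log2 scale (SE 0.075, adjusted p = 1.1e-07), from 39.3 ± 1.51 to 105 ± 9.48 CPM (SD, n = 3), which ranked 293rd from the top of 14287 genes. Hemin alone gave a difference of 0.06 (95% interval -0.11 to 0.22, adjusted p = 0.77). With DBIC+Hemin it was lower than with DBIC by 1.13 (log2 fold change -1.13, SE 0.074, adjusted p = 9.5e-07). Against Ctrl it stayed higher with DBIC+Hemin, by 0.29 (SE 0.074, adjusted p = 0.028), a call that was lost without Ctrl replicate 1 or 3 or DBIC+Hemin replicate 1 or 3 (adjusted p 0.0052 to 0.092 over 19 settings). Against Hemin the difference was 0.23 (adjusted p = 0.10), although no libraries overlapped, and DESeq2 alone among the settings called it (adjusted p = 0.049). The exons of NR1D1 share 263 bases, 9.5% of its exon bases, with THRA, the thyroid hormone receptor gene on the opposite strand, and whether the counting used strand is not given in the sources used here. THRA went the other way with DBIC, from 83.3 to 56.6 CPM (log2 fold change -0.56, adjusted p = 1.1e-05).

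NR1D2 (ENSG00000174738, chr3:23945260-23980618, plus strand) moved less. It stood at 103, 101 and 103 CPM in Ctrl, at 119, 122 and 124 CPM in DBIC, at 83.7, 92.5 and 89.6 CPM in Hemin and at 92.8, 92.4 and 82.8 CPM in DBIC+Hemin. The 3 levels did not overlap, with DBIC above Ctrl and Ctrl above both groups with hemin, which overlapped each other. DBIC raised NR1D2 by 0.25 (SE 0.048, adjusted p = 0.0019), a 1.19-fold change. Hemin lowered it by 0.21 (log2 fold change -0.21, SE 0.049, adjusted p = 0.037), and NR1D2 was the 1 gene of the 10 called with hemin alone, where 2.59% of all genes were called lower and 1.47% higher. At an unadjusted p under 0.05 edgeR had 2 of the 10 higher (PER2 and PER3) beside it, and DESeq2 had 0. That call was lost in 9 of 19 settings, which were the replicate block and those without any Ctrl or Hemin replicate or DBIC replicate 1 or 2 (adjusted p 0.0051 to 0.12 over 19 settings). DBIC+Hemin was below DBIC by 0.45 on the log2 scale (log2 fold change -0.45, adjusted p = 4.5e-05) and below Ctrl by 0.20 (log2 fold change -0.20, adjusted p = 0.023). The last call was lost in the fit of only those groups and without any Ctrl replicate or DBIC+Hemin replicate 3 (adjusted p up to 0.071). With DBIC+Hemin against Hemin the difference was 0.01 (95% interval -0.09 to 0.12, adjusted p = 0.93).

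The receptors therefore changed places in level per length. In Ctrl, NR1D1 had 29.5 ± 1.03 TPM and NR1D2 41.0 ± 0.928 TPM (SD, n = 3). With DBIC, NR1D1 had 78.6 ± 6.88 TPM and NR1D2 49.7 ± 2.01 TPM. The ratio of NR1D1 to NR1D2 in TPM was 0.695 to 0.77 in the Ctrl libraries, 1.43 to 1.82 in DBIC, 0.791 to 0.918 in Hemin and 0.908 to 1.14 in DBIC+Hemin. All DBIC ratios lay above 1 and above the other libraries, and all Ctrl ratios lay below those of the other groups. In DBIC+Hemin the receptors overlapped, at 35.2 ± 2.52 and 35.5 ± 2.41 TPM.

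**Figure D2:**
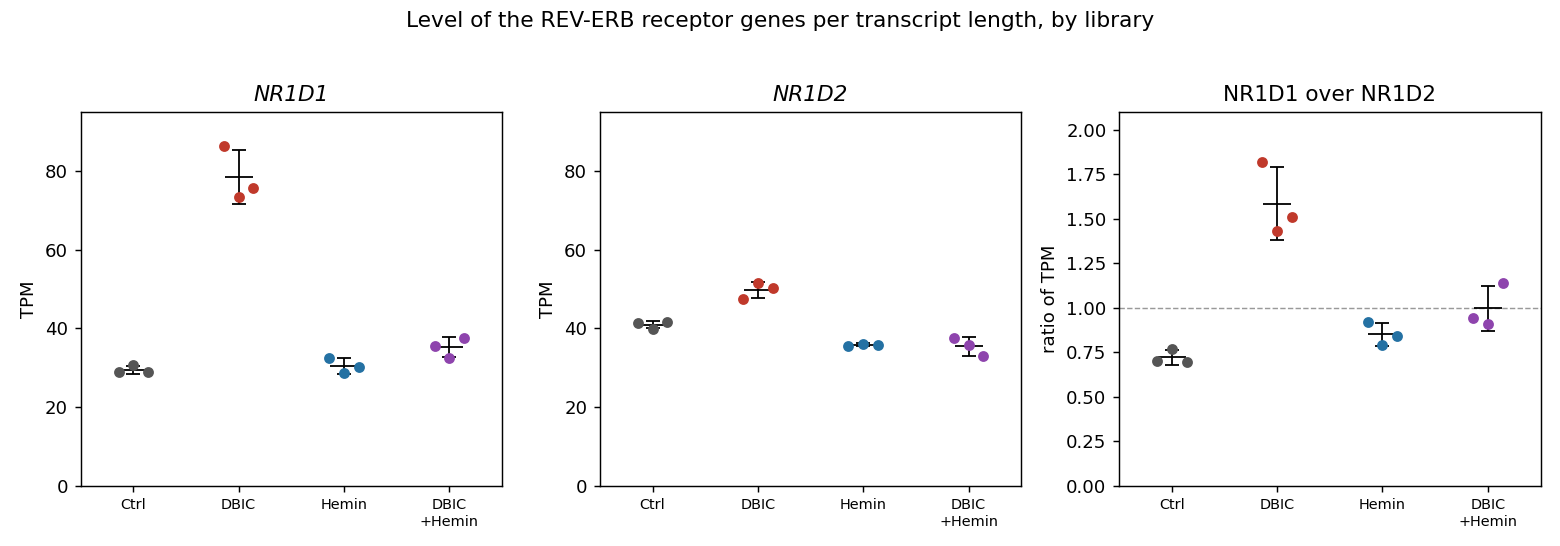
Levels of NR1D1 and NR1D2 in TPM (a level per transcript length, as deposited) and their ratio, by library. Points are libraries, bars are the mean and SD of 3 libraries, and the dashed line marks equal levels. The ratio is 1.43 to 1.82 in the DBIC libraries and at most 1.14 in the others.

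ARNTL (ENSG00000133794, chr11:13276652-13387266, plus strand), the activator of the loop and a known target of REV-ERB repression, stood at 12.4, 10.9 and 12.8 CPM in Ctrl, at 21.8, 22.7 and 19.4 CPM in DBIC, at 13.2, 13.8 and 12.4 CPM in Hemin and at 19.6, 15.6 and 17.6 CPM in DBIC+Hemin. It was high in both groups with DBIC, and these overlapped each other. DBIC raised it by 0.82 (SE 0.097, adjusted p = 5.8e-05), 1.77-fold, so ARNTL and NR1D1 rose in the same libraries. Hemin alone gave 0.12 (95% interval -0.09 to 0.34, adjusted p = 0.60). Of the 7 genes it had the smallest difference between DBIC+Hemin and DBIC, with a log2 fold change of -0.27 (SE 0.096, adjusted p = 0.049, 0.022 to 0.17 over 19 settings). It stayed above Ctrl by 0.55 (SE 0.097, adjusted p = 0.0037) in all settings tried. Above Hemin it stood by 0.42 (SE 0.097, adjusted p = 0.024), a call that was lost in the fit of only those groups and without DBIC+Hemin replicate 1 or 3 or Hemin replicate 1 or 3 (adjusted p up to 0.094).

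Of the PER repressors, PER1 (ENSG00000179094, chr17:8140472-8156506, minus strand) stood at 38.1, 33.9 and 37.3 CPM in Ctrl, at 69.9, 76.3 and 76.0 CPM in DBIC, at 38.8, 32.9 and 35.1 CPM in Hemin and at 36.2, 35.1 and 32.7 CPM in DBIC+Hemin. The DBIC libraries stood alone, and the other groups overlapped. DBIC raised PER1 by 1.02 (SE 0.071, adjusted p = 8.9e-07). Hemin with DBIC gave a log2 fold change of -1.10 against DBIC (SE 0.071, adjusted p = 8.1e-07), and DBIC+Hemin differed from Ctrl by -0.07 (95% interval -0.23 to 0.08, adjusted p = 0.59).

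PER2 (ENSG00000132326, chr2:238244038-238290102, minus strand) was lower in level but moved the same way. It stood at 6.9, 6.32 and 7.27 CPM in Ctrl, at 11.8, 12.6 and 10.8 CPM in DBIC, at 8.2, 8.24 and 9.1 CPM in Hemin and at 8.62, 7.68 and 7.89 CPM in DBIC+Hemin. DBIC raised PER2 by 0.78 (SE 0.087, adjusted p = 3.8e-05), and with DBIC+Hemin it was lower than with DBIC (log2 fold change -0.54, SE 0.086, adjusted p = 0.00067). Unlike PER1, all Hemin and all DBIC+Hemin libraries lay above all Ctrl libraries, but the differences of 0.32 and 0.24 did not pass the test (adjusted p = 0.072 and 0.11).

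PER3 (ENSG00000049246, chr1:7784320-7845177, plus strand) did not share the rise. It stood at 2.61, 2.77 and 2.84 CPM in Ctrl, at 2.47, 2.56 and 2.36 CPM in DBIC, at 3.34, 4.35 and 3.19 CPM in Hemin and at 2.55, 2.51 and 2.76 CPM in DBIC+Hemin. In CPM the Hemin libraries were the highest, with 1 library well above the other 2, and the DBIC libraries all lay below Ctrl. In the deposited TPM these groups overlapped, with 1.48, 1.37 and 1.36 in Ctrl, 1.47, 0.829 and 0.78 in DBIC and 1.34, 1.76 and 1.93 in Hemin. The difference with DBIC was -0.15 (95% interval -0.44 to 0.13, adjusted p = 0.40) and that with hemin 0.41 (95% interval 0.12 to 0.69, adjusted p = 0.12). DBIC+Hemin was below Hemin (log2 fold change -0.48, SE 0.13, adjusted p = 0.0496), a call that was lost in 15 of 19 settings, among them every one that leaves out 1 library except that without Hemin replicate 3, and reached an adjusted p of 0.16. UTS2, the urotensin gene whose exons on the opposite strand cover 10.7% of the exon bases of PER3, had at most 0.0993 CPM in any library.

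Of the cryptochromes, CRY1 (ENSG00000008405, chr12:106991364-107093829, minus strand) stood at 33.3, 29.5 and 30.5 CPM in Ctrl, at 39.5, 41.3 and 40.7 CPM in DBIC, at 32.8, 32.7 and 32.5 CPM in Hemin and at 31.3, 30.9 and 30.9 CPM in DBIC+Hemin. The DBIC libraries lay above the rest by a small margin. DBIC raised it 1.30-fold (log2 fold change 0.38, SE 0.047, adjusted p = 8e-05), and DBIC+Hemin was below DBIC by the same amount (log2 fold change -0.38, SE 0.047, adjusted p = 1e-04). DBIC+Hemin differed from Ctrl by less than 0.01 (95% interval -0.11 to 0.10).

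CRY2 (ENSG00000121671, chr11:45847118-45883248, plus strand) could not be placed. It stood at 8.64, 11.9 and 9.7 CPM in Ctrl, at 7.13, 12.7 and 13.4 CPM in DBIC, at 8.81, 10.7 and 10.9 CPM in Hemin and at 10.9, 9.64 and 6.54 CPM in DBIC+Hemin. All groups overlapped, and the difference with DBIC was 0.14 with a 95% interval of -0.42 to 0.69 (adjusted p = 0.71), which spans a change of the size seen in CRY1. The deposited TPM values gave another picture, with 6.67, 6.28 and 6.83 TPM in DBIC above all Ctrl libraries at 4.33, 5.99 and 4.9 TPM. The count behind 1 TPM of CRY2, scaled to each library, differed by a factor of 2.02 between libraries. The median was 1.09 over the 10121 genes that had more than 200 counts in each library. The deposited counts and TPM values of CRY2 were therefore not in a fixed ratio across libraries, and the cause was not tested. The same factor was 1.87 for PER3, 1.48 for DBP, 1.3 for ARNTL and at most 1.1 for the other 6.

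BHLHE40 (ENSG00000134107, chr3:4979116-4985323, plus strand), also known as DEC1, a repressor that competes at E-boxes, changed most. It stood at 12.8, 13.8 and 14 CPM in Ctrl, at 61.1, 49.8 and 51.3 CPM in DBIC, at 13.4, 12.2 and 13.9 CPM in Hemin and at 14.1, 12.9 and 16.6 CPM in DBIC+Hemin. The DBIC libraries stood apart, and the other groups overlapped. DBIC raised it by 1.997 (SE 0.11, adjusted p = 1e-07), from 13.5 ± 0.659 to 54.0 ± 6.15 CPM (SD, n = 3), the 145th largest rise of 14287 genes. With DBIC+Hemin it was lower than with DBIC by 1.89 (log2 fold change -1.89, SE 0.1, adjusted p = 2.3e-07), the 101st largest fall. Against Ctrl, DBIC+Hemin differed by 0.10 (95% interval -0.13 to 0.33, adjusted p = 0.61).

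DBP (ENSG00000105516, chr19:48630030-48637438, minus strand), a D-box activator whose transcript is a usual readout of ARNTL and CLOCK activity, did not rise. It stood at 4.07, 4.41 and 4.12 CPM in Ctrl, at 3.81, 2.68 and 2.81 CPM in DBIC, at 3.97, 3.31 and 4.13 CPM in Hemin and at 3.58, 1.89 and 2.92 CPM in DBIC+Hemin. All libraries of both groups with DBIC lay below all Ctrl libraries, without passing the test. The difference was -0.44 with DBIC (95% interval -0.90 to 0.02, adjusted p = 0.13) and -0.59 with DBIC+Hemin (95% interval -1.05 to -0.12, adjusted p = 0.10), and each passed it in 1 of 19 settings, without DBIC+Hemin replicate 2 (adjusted p = 0.0499) and without DBIC+Hemin replicate 1 (adjusted p = 0.044). SPHK2, the sphingosine kinase gene on the opposite strand, shares 10.1% of the exon bases of DBP and had 45.1 to 60.6 CPM, well above DBP, and its part in the value of DBP was not tested.

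**Figure D3:**
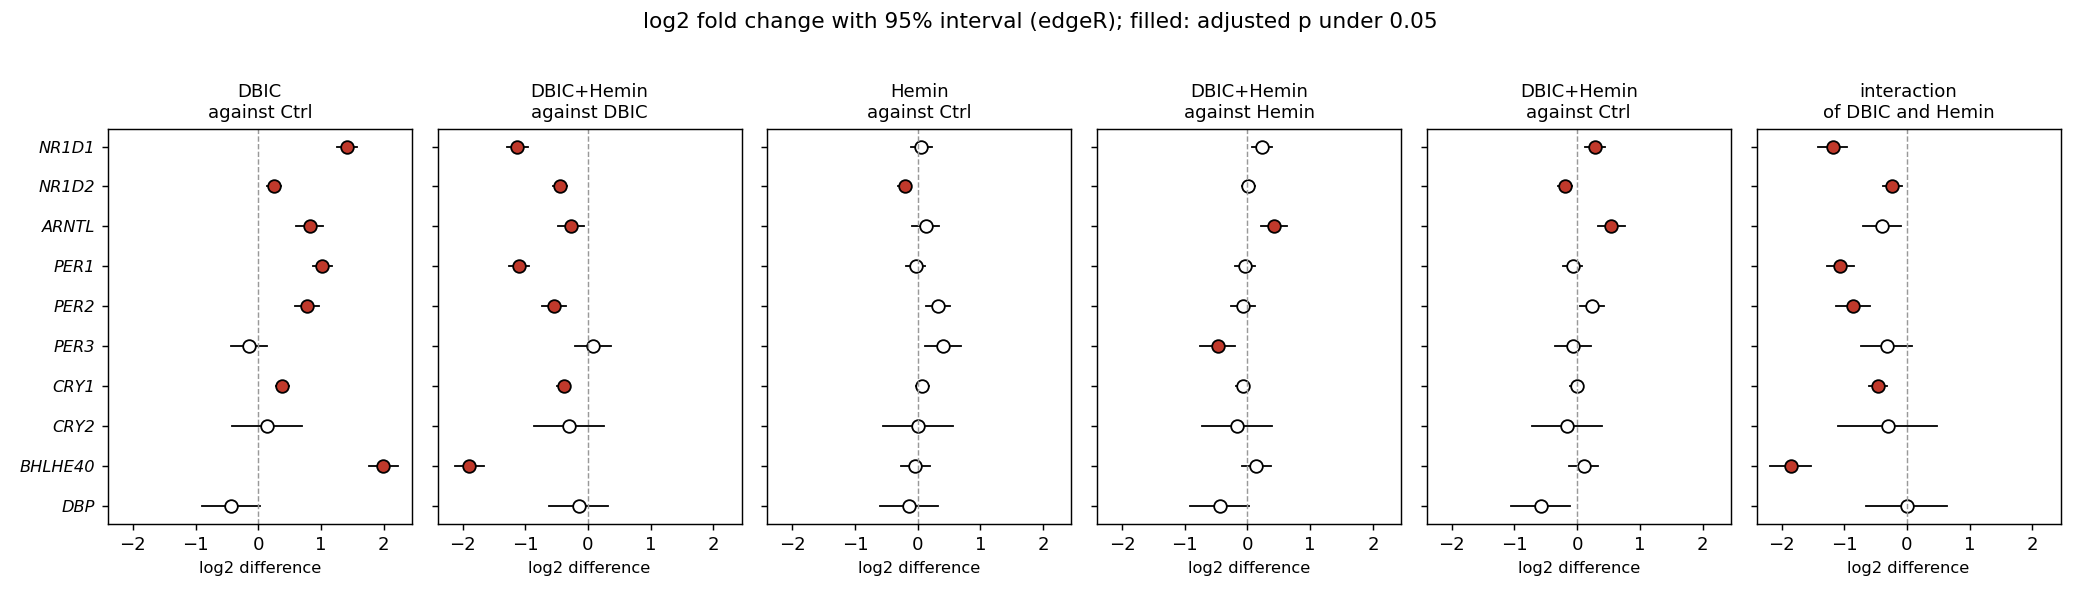
log2 fold change of each gene in the 5 comparisons of groups and in the interaction (the difference between the DBIC effects with and without hemin), with the 95% interval of edgeR's fit. Filled points passed an adjusted p under 0.05. The 7 filled points of DBIC against Ctrl, from 0.25 to 1.997, all lie below 0 in DBIC+Hemin against DBIC, from -1.89 to -0.27.

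Whether the effect of DBIC differed with hemin was tested directly by the interaction, the DBIC effect in the presence of hemin minus that in its absence. All 10 estimates were below 0, that of DBP at -0.01 with a sign that turned in 8 of 18 settings, and 6 of them passed the test. It was called below 0 for 10.2% and above 0 for 6.4% of all genes tested, and for 6 and 0 of the 10 genes (7 and 0 at an unadjusted p under 0.05, and 6 and 0 by DESeq2). BHLHE40 had -1.86 (SE 0.15, adjusted p = 1e-05), NR1D1 -1.19 (SE 0.1, adjusted p = 2.3e-05) and PER1 -1.06 (SE 0.1, adjusted p = 3.7e-05). PER2 followed with -0.86 (adjusted p = 7e-04) and CRY1 with -0.46 (adjusted p = 0.00078). NR1D2 had -0.24 (adjusted p = 0.037), a call that was lost in 10 of 18 settings, among them upper-quartile scaling and 8 that leave out 1 library (all of them but those without Hemin replicate 1 or any DBIC+Hemin replicate), with adjusted p from 0.021 to 0.088. ARNTL had -0.40 (95% interval -0.70 to -0.10, adjusted p = 0.072), and passed the test without DBIC+Hemin replicate 1 (adjusted p = 0.036). The median was -0.43 over the 10 genes and -0.01 over all genes, and under upper-quartile scaling the calls over all genes went from 38.5% to 55.4% higher.

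DBIC+Hemin was also compared with Hemin and with Ctrl. Against Hemin, DBIC+Hemin had 1 gene higher (ARNTL) and 1 lower (PER3), where 3.71% of all genes were called higher and 3.09% lower. Neither call held in every setting, and DESeq2 had ARNTL and NR1D1 higher and 0 lower. At an unadjusted p under 0.05 edgeR had 2 higher and 1 lower, beside 2879 of all 14287 genes in either direction. Against Ctrl, 2 genes were higher (NR1D1 and ARNTL) and 1 lower (NR1D2), where 5.66% were called higher and 6.74% lower, and ARNTL alone held in every setting. At an unadjusted p under 0.05 edgeR had 3 higher and 2 lower there, beside 3639 of all 14287 genes. The medians of the 10 genes were -0.06 and -0.04. With library sizes as the only scaling, the calls over all genes went from 54.6% to 42.3% higher against Hemin and from 45.6% to 34.4% higher against Ctrl. The comparisons with Ctrl share the Ctrl libraries.

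Per transcript length, the order of the genes in Ctrl was NR1D2, NR1D1, CRY1 at 20.3 ± 1.49 TPM, PER1 at 17.6 ± 1.002 TPM, ARNTL at 10.1 ± 0.733 TPM, BHLHE40 at 8.09 ± 0.371 TPM, DBP at 6.54 ± 0.863 TPM, CRY2 at 5.07 ± 0.841 TPM, PER2 at 2.22 ± 0.163 TPM and PER3 at 1.40 ± 0.0677 TPM (SD, n = 3). In that order DBP and CRY2 overlapped, and no other neighbours did. With DBIC the order was NR1D1, NR1D2, PER1 at 35.9 ± 1.49 TPM, BHLHE40 at 32.3 ± 3.59 TPM, CRY1 at 26.9 ± 0.724 TPM, ARNTL at 17.7 ± 1.32 TPM, CRY2 at 6.59 ± 0.286 TPM, DBP at 4.69 ± 0.956 TPM, PER2 at 3.82 ± 0.266 TPM and PER3 at 1.03 ± 0.385 TPM. PER1 and BHLHE40 overlapped there, as did DBP and PER2. The places of CRY2, PER3 and DBP rest on TPM values whose count behind 1 TPM differed between libraries, by factors of 2.02, 1.87 and 1.48. In CPM, CRY2 stood above DBP in both groups, with means of 10.1 and 4.2 in Ctrl and 11.1 and 3.1 in DBIC. The CRY2 libraries overlapped between these groups in CPM. The ratio of NR1D1 to DBP, both known as E-box targets, was 4.12 to 5.04 in Ctrl, 15.3 to 19.6 in DBIC, 3.92 to 6.87 in Hemin and 6.04 to 13.1 in DBIC+Hemin. PER1 stood above PER2 by a ratio in TPM of 7.48 to 8.23 in Ctrl, 8.91 to 10.3 in DBIC, 5.86 to 6.64 in Hemin and 6.06 to 7.04 in DBIC+Hemin.

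The pattern of NR1D1 over the 12 libraries was most like that of ICAM1, an adhesion molecule of inflamed cells, with a Pearson r of log2 CPM of 0.995, then AKAP17A (0.993) and JUNB (0.993), a subunit of the AP-1 factor, among 10678 genes with at least 5 CPM on average. Like NR1D1, these were highest in DBIC, and JUNB went from 57.6 to 725 CPM with DBIC and to 89.2 CPM with DBIC+Hemin. NR1D2 was most like SLC30A1, a zinc exporter (0.968), SNTB2 (0.961) and LPIN2 (0.9597), genes that were above Ctrl with DBIC and below it in both groups with hemin. SLC30A1 had group means of 31.9, 63.7, 14.4 and 15.8 CPM in Ctrl, DBIC, Hemin and DBIC+Hemin. The points of each correlation are the same 12 libraries in 4 groups, so the group means set most of its size.

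Of 12 other transcription factors of the clock loops, 10 were tested, and 4 rose and 2 fell with DBIC, where 20% of all genes rose and 17.2% fell, with a median of -0.02. NFIL3, a D-box repressor that opposes DBP, went from 5.32 to 19.9 CPM (log2 fold change 1.90, adjusted p = 6.5e-08), while TEF, a D-box activator related to DBP, fell by 0.28 (adjusted p = 0.0023) and TIMELESS, which acts mainly at replication forks, fell by 0.21 (adjusted p = 0.00012). RORA, the activator that shares its element with the REV-ERBs, was singled out after its values were seen, and it rose by 0.95 (SE 0.24, adjusted p = 0.0099) from 1.57 to 3.05 CPM. CLOCK also rose with DBIC, by 0.23 (adjusted p = 0.014), as did NPAS2, by 0.20 (adjusted p = 0.0059). Between DBIC+Hemin and DBIC, 2 fell and 1 rose, where 18.4% of all genes fell and 13.5% rose. NFIL3 fell by 1.08 (log2 fold change -1.08, adjusted p = 6.8e-06) and CLOCK, the partner of ARNTL, by 0.25 (log2 fold change -0.25, adjusted p = 0.0094), while TIMELESS rose by 0.15 (adjusted p = 0.0019). The mean of CLOCK was 44.3 CPM in Ctrl, 51.8 in DBIC, 45.15 in Hemin and 43.55 in DBIC+Hemin. Hemin alone raised NFIL3 by 0.54 (adjusted p = 0.0086) and none of the others passed the test, where 1.47% of all genes rose and 2.59% fell. DBIC+Hemin left NFIL3 above Ctrl by 0.82 (adjusted p = 0.00022) and NPAS2, the other partner of ARNTL, by 0.17 (adjusted p = 0.031). In that comparison 5.66% of all genes were called higher and 6.74% lower.

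The 6 genes of the REV-ERB corepressor complex moved little. With DBIC, 2 fell and 0 rose, against 17.2% and 20% of all genes (also 2 and 0 at an unadjusted p under 0.05 in edgeR and by DESeq2), and HDAC3, its deacetylase, fell by 0.18 (adjusted p = 0.00055). HDAC3 was higher with DBIC+Hemin than with DBIC, and rose by 0.20 (adjusted p = 0.00039). Hemin alone gave 0 calls in this list, by edgeR at an adjusted or an unadjusted p and by DESeq2. Of all genes, 1.47% were called higher and 2.59% lower there, so 0 of 6 lies near those shares. DBIC+Hemin against Ctrl and against Hemin also gave 0 calls by both tools, with 3 genes and 1 gene at an unadjusted p under 0.05 in edgeR. The shares of all genes called higher and lower were 5.66% and 6.74% against Ctrl, and 3.71% and 3.09% against Hemin.

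Among 20 kinases, phosphatases and ubiquitin ligases that act on clock proteins, 19 were tested (FBXL21 was not). With DBIC 5 of 19 rose and 2 fell, counts near the 20% and 17.2% of all genes, with a median of 0.02. SIAH2, a ubiquitin ligase of the REV-ERB proteins, rose by 0.62 (adjusted p = 6.5e-06) from 43.1 to 66.2 CPM, CSNK1D, a kinase of the PER proteins, rose by 0.34 (adjusted p = 0.00038), and GSK3B, a kinase that stabilises NR1D1 protein, rose by 0.20 (adjusted p = 0.00038). The same 3 genes fell with DBIC+Hemin against DBIC, with log2 fold changes of -0.45, -0.39 and -0.20, within 5 lower and 2 higher calls of 19, against 18.4% and 13.5% of all genes. With DBIC+Hemin against Hemin 3 rose, GSK3B among them, and 0 fell (4 and 0 both at an unadjusted p and by DESeq2), against 3.71% and 3.09% of all genes. With hemin alone 0 rose and 1 fell, against 1.47% and 2.59% of all genes. That gene was GSK3B (log2 fold change -0.13, adjusted p = 0.047 by edgeR).

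The 20 genes known as outputs of REV-ERB or of the clock held 17 that were tested (FGF21, CYP7A1 and ELOVL3 were not). With DBIC 11 rose and 2 fell, against 20% and 17.2% of all genes, and the median was 0.59 against -0.01. NAMPT, the NAD salvage enzyme driven by E-boxes, went from 178 to 332 CPM (log2 fold change 0.89, adjusted p = 6.8e-09). The chemokine CCL2 went from 14.3 to 45.8 CPM (1.68, adjusted p = 1.4e-08) and the zinc finger gene KLF10 from 34.1 to 140 CPM (2.04, adjusted p = 1.1e-07). IL6, another cytokine known as a REV-ERB target, was singled out after its values were seen as the largest change, from 0.277 to 6.7 CPM (4.58, SE 0.27, adjusted p = 2.6e-07). In DBIC+Hemin against DBIC 0 rose and 10 fell by edgeR, at its unadjusted p and by DESeq2 alike, against 13.5% and 18.4% of all genes, with a median of -0.52, and CCL2 had -1.63 (adjusted p = 2.6e-08) and NAMPT -0.72 (adjusted p = 4.9e-08). The interaction was called below 0 for 10 and above 0 for 1, ALAS1, against 10.2% and 6.4% of all genes. Many of these genes also answer to inflammatory and stress signals, and the list does not separate those routes.

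With hemin alone, 3 of the 17 outputs rose and 2 fell, against 1.47% and 2.59% of all genes. ALAS1, which is both a REV-ERB target and the gene that heme shuts off, fell by 1.24 (adjusted p = 2e-08), and KLF9 fell by 0.35 (adjusted p = 0.0019), while LPIN1 rose by 0.35 (adjusted p = 0.0027). With DBIC+Hemin against Hemin 5 rose and 2 fell, against 3.71% and 3.09% of all genes. ALAS1 rose there by 0.50 (adjusted p = 1.4e-05), while SREBF1, the lipid synthesis factor, had -0.46 (adjusted p = 3.1e-06) and LPIN1 -0.53 (adjusted p = 0.00011). Against Ctrl, DBIC+Hemin had 7 higher and 3 lower, against 5.66% and 6.74% of all genes.

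The 11 genes of the CREB route that induces PER1 were all tested. With DBIC 7 rose and 0 fell (9 and 0 at an unadjusted p under 0.05 in edgeR, 8 and 0 by DESeq2), against 20% and 17.2% of all genes, with a median of 0.34. SIK1, a kinase that is itself a CREB target and restrains CRTC, went from 3.97 to 14.4 CPM (log2 fold change 1.86, adjusted p = 7.9e-08), EP300, a coactivator of CREB, rose by 0.48 (adjusted p = 2.4e-05) and SIK3 by 0.54 (adjusted p = 5e-05). With DBIC+Hemin against DBIC 0 rose and 6 fell (0 and 7 at an unadjusted p, 0 and 6 by DESeq2), against 13.5% and 18.4% of all genes, with a median of -0.20, and SIK1 fell by 1.51 (adjusted p = 5.5e-07). SIK1 and CREM stayed above Ctrl with DBIC+Hemin, by 0.35 (adjusted p = 0.033) and 0.40 (adjusted p = 0.046), where 5.66% of all genes were called higher and 6.74% lower. Hemin alone gave 0 calls by edgeR, with 1 gene at an unadjusted p under 0.05, and 0 by DESeq2. Of all genes, 1.47% were called higher and 2.59% lower with hemin alone.

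The 14 genes of heme supply and export around the ligand of the receptors were all tested. With DBIC 2 of 14 rose and 5 fell, against 20% and 17.2% of all genes, with a median of -0.20. BACH1, the heme-sensing repressor of HMOX1, went from 33.0 to 70.1 CPM (log2 fold change 1.09, adjusted p = 5.6e-05), ALAS1 rose by 0.26 (adjusted p = 0.00013) and PGRMC1, a heme-binding membrane protein, fell by 0.28 (adjusted p = 0.00047). From DBIC to DBIC+Hemin 5 rose and 3 fell, against 13.5% and 18.4% of all genes, led by HMOX1 with 4.43 (adjusted p = 9.8e-10), while ALAS1 fell by 0.997 (adjusted p = 1e-08). With hemin alone HMOX1 rose by 2.86 (adjusted p = 1.2e-07) and ALAS1 fell, and no other gene of this list passed the test. Of all genes, 1.47% were called higher and 2.59% lower in that comparison. HMOX1 was higher with DBIC+Hemin than with Hemin by 1.41 (adjusted p = 1e-05).

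**Figure D4:**
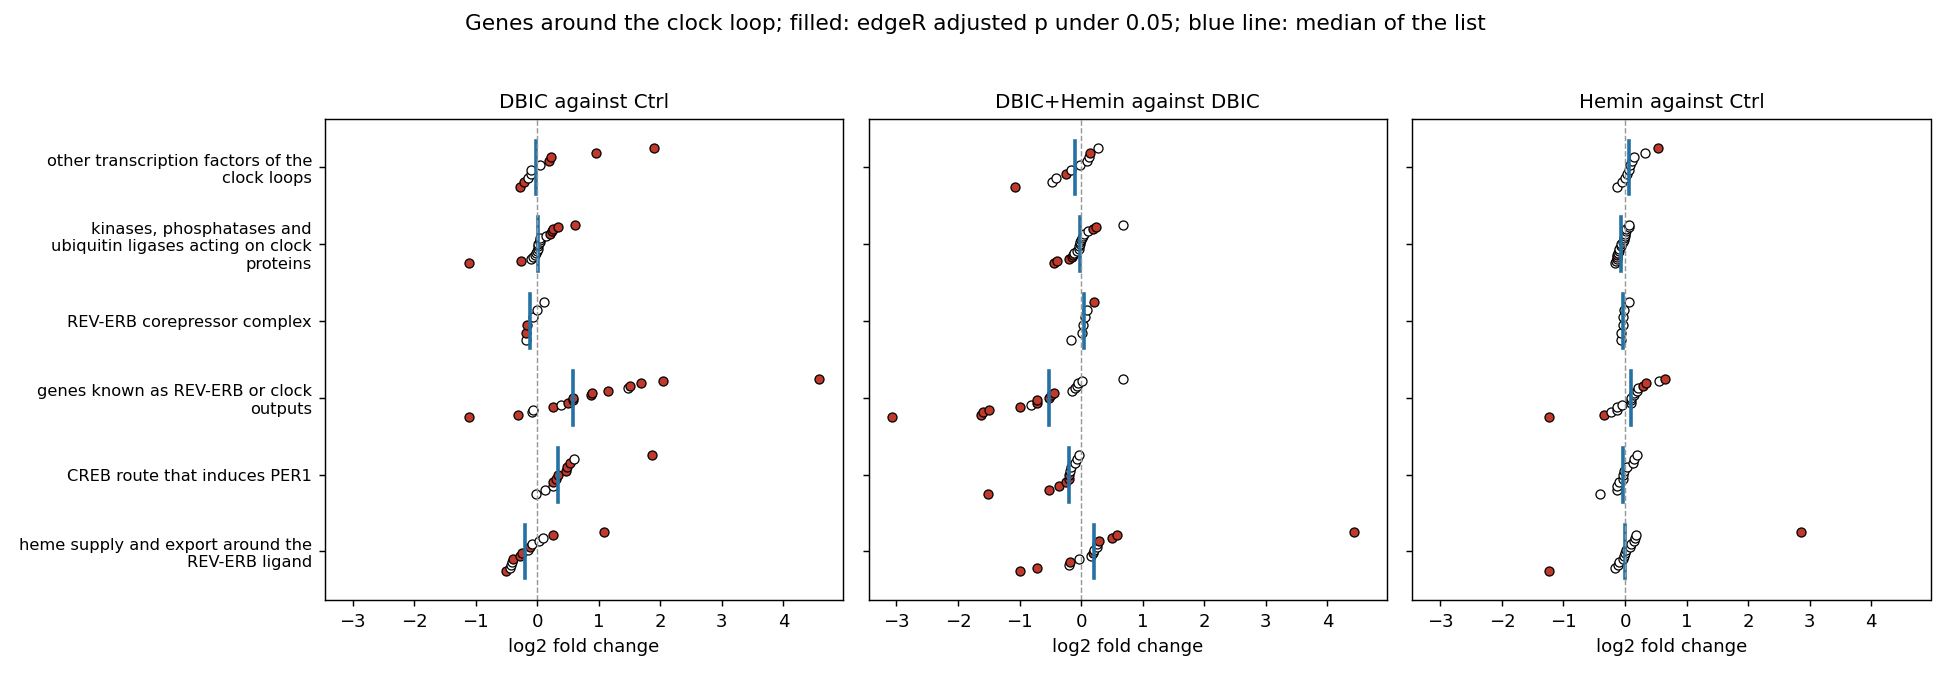
log2 fold change of every tested gene of 6 lists of genes around the clock loop, in 3 comparisons. Filled points passed an adjusted p under 0.05 by edgeR, and blue lines are list medians. The outputs and the CREB route have medians of 0.59 and 0.34 with DBIC and of -0.52 and -0.20 with DBIC+Hemin against DBIC, and the corepressor genes lie near 0 in all 3.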

How the data were processed

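RNA was extracted with Trizol, and 12 libraries were labelled Ctrl, DBIC, Hemin or DBIC+Hemin (3 each). The authors deposited 1 table of 20263 genes with a read count per gene and library, not normalized, a TPM value, scaled for length and to 1 sum per library, and an FPKM value, scaled for length and depth. Per the labels' processing notes, Trim Galore, Subread, featureCounts and hg38 were used. Versions, annotation and the use of strand are not given in the sources used here. The positions of all 10 genes matched GENCODE 29 (GRCh38).

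Differences came from edgeR 4.0.16 (R 4.3.3) on the counts (filterByExpr, TMM factors, robust quasi-likelihood fit with 1 mean per group over 12 libraries, 8 residual degrees of freedom, F test, Benjamini-Hochberg adjustment over 14287 genes). The study's text names gene set enrichment analysis for its RNA-seq and no test per gene. An adjusted p under 0.05 was called. An unadjusted p under 0.05, in either direction, was held by 6504 genes in DBIC against Ctrl, 2383 in Hemin against Ctrl and 5918 in DBIC+Hemin against DBIC. It was held by 2879 in DBIC+Hemin against Hemin, 3639 in DBIC+Hemin against Ctrl and 4127 in the interaction. Each SE was taken as |log2 fold change| divided by the square root of its F value, and intervals are 95%. The steps were tested on simulated counts, and the outcome is not reported here. The deposited TPM was used to compare levels between genes, with FPKM as an alternative.

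The 10 genes and the lists were chosen with earlier results of these data known. All 10 are reported in every comparison, and of each list at most the 3 called genes with the smallest adjusted p are named (RORA, IL6, CREB1, CREBBP, and CLOCK and NPAS2 with DBIC, chosen after their values were seen, are exceptions), beside HMOX1 and ALAS1 as label checks, overlapping genes, and the 3 genes most like each receptor (log2 CPM, prior count 2, mean of at least 5 CPM). Alternatives were DESeq2 1.42.0, upper-quartile factors, library size only, no filter, at least 10 counts in every library, a fit limited to the compared groups, a block for the replicate number, and leaving out each library. Replicates of a group had r of 0.981 to 0.988 in log2 CPM across genes, and none held identical counts. The limit of 3 counts covers counting error only. Some genes of the lists are not reported here by name.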

Additional observations from a re-analysis of the deposited data

Results flagged for a closer look

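The effect of DBIC differed with and without hemin by the interaction test of edgeR (Benjamini-Hochberg over 14287 genes) for 6 of the 10 genes. Each had a smaller effect when hemin was present. Of all genes tested, the interaction was called below 0 for 10.2% and above 0 for 6.4%. The difference between the effects on the log2 scale was -1.86 for BHLHE40, -1.19 for NR1D1, -1.06 for PER1, -0.86 for PER2, -0.46 for CRY1 and -0.24 for NR1D2. For NR1D1 the DBIC effect was 1.41 without hemin and 0.23 with it, and for BHLHE40 1.997 and 0.14. For PER1 it was 1.02 and -0.04, for PER2 0.78 and -0.08, and for CRY1 0.38 and -0.08. NR1D2 had 0.25 and 0.01, and its interaction was lost in 10 of 18 settings.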

How the results depend on the processing

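Under 19 alternative settings (18 for the interaction) all 7 calls of DBIC against Ctrl were kept, as were 6 of 7 in DBIC+Hemin against DBIC (not ARNTL), 5 of 6 in the interaction (not NR1D2), 1 of 3 in DBIC+Hemin against Ctrl (ARNTL), 0 of 2 in DBIC+Hemin against Hemin and 0 of 1 in Hemin against Ctrl. No called difference changed sign. For Hemin against Ctrl, leaving out 1 library gave 0 to 1 of the 10 genes and 272 to 623 genes in all (580 with all libraries), and DESeq2 gave 909 in all. For DBIC+Hemin against Hemin, leaving out 1 library gave 0 to 1 of the 10 genes and 612 to 934 in all (971 with all libraries). There, no filter gave 1 of the 10 and 881 in all, and the fit of only those groups gave 0 of the 10 and 569 in all. With DBIC+Hemin against Ctrl, leaving out 1 library gave 1 to 3 of the 10 and 1218 to 1758 genes in all (1771 with all libraries). Settings that leave some libraries out also hold fewer libraries, and the cause of these shifts was not tested. Nothing in the labels says whether the replicate numbers pair the samples. Same-numbered libraries had deviations from their group means that correlated at -0.139 to 0.132 (18 pairs, median 0.0448). For different numbers the range was -0.155 to 0.243 (36 pairs, median -0.0251). These ranges overlap, so they cannot decide whether same-numbered libraries shared a culture or a batch. With the replicate number as a block, 7 of the 10 genes were called in DBIC against Ctrl, 6 in DBIC+Hemin against DBIC, 5 in the interaction, 3 in DBIC+Hemin against Ctrl, 1 in DBIC+Hemin against Hemin and 0 in Hemin against Ctrl. Over all genes the block gave 5084, 4262, 2078, 1500, 776 and 408 calls in these comparisons, in that order. Of the 10 genes, CRY2 and DBP had the widest 95% intervals, so small changes in them were not detectable with these libraries.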
